A study of Mus musculus with 3 samples.

Results

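The cells described here are 116 cells from cultures of mouse mammary tumours that carried high counts of at least 3 of 5 genes for secreted inflammatory and matrix-associated proteins, and they are called 5-gene-high cells below. They were chosen by measured values from the 7620 cells of the series: a culture cell in collagen or Matrigel needed at least 5000 UMIs (unique molecular identifiers, each standing for 1 captured RNA molecule), at least 3 of Ccl2, Cxcl5, Ptx3, Hp and Wisp2 detected, and a sum of these 5 genes of at least 10 per 10000 UMIs of the cell. Cells with any UMI of Tyrobp or Fcer1g, which mark macrophages, were left out, as were cells with Col1a1 and Col3a1 at 5 or more per 10000, which mark fibroblasts. The same depth, macrophage and collagen gates left 6169 cells, of which the 6053 that were not 5-gene-high served as comparison cells. Since the 5 genes chose the cells, their levels are given as a description, with no test.

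The tumours came from FVB mice that carry the C3(1)-Tag transgene, the SV40 large T antigen under the C3(1) regulatory region, which drives mammary cancer in females. The mice were 25 to 30 weeks old and their tumours reached 20 mm. Organoids from 4 mice were embedded in collagen I or in Matrigel, a basement membrane extract, and all were kept in medium with 2.5 nM FGF2. Cells were taken 12 h after plating (day 0), on day 3 and on day 5, released with collagenase (collagen gels) or EDTA (Matrigel), tagged with lipid-anchored barcodes that mark mouse and matrix, pooled, sorted as live cells and sequenced by droplet 3' RNA sequencing. Each day is 1 pool, 1 library and 1 sequencing batch, so that day and pool cannot be told apart, and every pool also held cells of the 4T1 mouse mammary carcinoma line. Day 5 had cells of mice 1 to 3 in the gated set. The 3 libraries held 2961, 3463 and 1196 cells on days 0, 3 and 5, with 60391888, 140869562 and 68725854 UMIs, and 13, 70 and 33 of these cells were 5-gene-high. The 5-gene-high cells had a median of 39453 UMIs, against 33527 in comparison cells, and a median mitochondrial share of 3.90% against 3.73%. Of the barcodes, 11 occurred in more than 1 library, and none of the 116 cells carried any of them.

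Ccl2 encodes a chemokine that recruits monocytes, and Cxcl5 one that recruits neutrophils. Ptx3 encodes a secreted pattern recognition protein, Hp encodes haptoglobin, a haemoglobin-binding acute-phase protein, and Wisp2 encodes a matricellular protein of the CCN family. In many cell types such genes are switched on by the transcription factors NF-kB, C/EBP and STAT3 downstream of cytokines, and interferons act on another set of genes through the interferon-stimulated response element (ISRE). In mammary tumours, secreted chemokines of this kind are known for drawing myeloid cells into the tissue.

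The promoters of 3 genes are shown because they hold matches to the motifs of these factors: Ptx3 of the selecting genes, Saa3, whose counts were among the highest relative to comparison cells, and Isg15, the interferon-induced gene that the comparisons below turn on. The sequences are RefSeq's for GRCm38.p6, from 250 bases before to 50 bases after the annotated start, 5′ to 3′ on the gene's strand, with motif matches in capitals. Ptx3 lies at chr3:66219637-66219936 on the plus strand, Saa3 at chr7:46715627-46715926 on the minus strand and Isg15 at chr4:156200769-156201068 on the minus strand.
Ptx3: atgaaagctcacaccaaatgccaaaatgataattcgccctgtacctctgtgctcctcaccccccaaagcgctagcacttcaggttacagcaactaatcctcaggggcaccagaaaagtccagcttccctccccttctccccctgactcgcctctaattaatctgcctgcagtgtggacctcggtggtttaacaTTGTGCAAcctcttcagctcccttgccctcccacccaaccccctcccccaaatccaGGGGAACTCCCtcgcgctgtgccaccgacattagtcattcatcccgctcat
Saa3: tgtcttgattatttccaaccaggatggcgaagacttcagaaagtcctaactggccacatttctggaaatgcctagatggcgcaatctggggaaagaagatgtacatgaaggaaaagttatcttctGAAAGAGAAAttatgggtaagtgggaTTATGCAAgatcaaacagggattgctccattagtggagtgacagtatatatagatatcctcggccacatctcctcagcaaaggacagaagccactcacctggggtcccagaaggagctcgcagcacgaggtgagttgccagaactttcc
Isg15: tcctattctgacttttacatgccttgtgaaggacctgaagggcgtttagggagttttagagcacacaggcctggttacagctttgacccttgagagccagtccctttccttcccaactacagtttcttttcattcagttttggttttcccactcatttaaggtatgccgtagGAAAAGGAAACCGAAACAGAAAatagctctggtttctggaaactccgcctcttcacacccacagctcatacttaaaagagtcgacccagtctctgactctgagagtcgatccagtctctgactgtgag
The Ptx3 capitals mark 1 match to the C/EBP motif TTGCNNAA and 2 overlapping matches to the NF-kB motif. The Saa3 capitals mark 1 match to the ISRE motif, which was searched as GAAA, any 2 bases and GAAA, and 1 to the C/EBP motif. The Isg15 capitals mark 3 overlapping ISRE matches. Both strands were searched, and of the 32851 RefSeq promoter windows of this length 8.46% held the NF-kB motif, 10.8% the C/EBP motif and 3.44% the ISRE motif. The AP-1 motif TGANTCA, found in 7.81% of windows, had 0 matches in these 3. Of the 5 selecting genes, Ptx3 had an entry in the table; Ccl2, Cxcl5, Hp and Wisp2 are named only.

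Cxcl5 carried most of the selecting counts. It had a UMI in 111 of the 116 cells (95.7%) and supplied 63.7% of the UMIs of the 5 genes, with a pooled level of 2479 CPM (UMIs of the gene scaled to a total of 1000000) in 5-gene-high cells and 177 CPM in comparison cells. Ccl2 was detected in 80.2% of the 5-gene-high cells, at 802 CPM against 28.9 CPM in comparison cells. Hp was detected in 58.6% of them, at 409 CPM against 8.65 CPM. Ptx3 and Wisp2 were low even here: Ptx3 was detected in 62.1% of the 5-gene-high cells at 112 CPM, against 10.4 CPM in comparison cells, and Wisp2 in 44.8% at 91.9 CPM, against 2.42 CPM. In comparison cells the share with a UMI was 43.0% for Cxcl5, 12.1% for Ccl2, 12.7% for Ptx3, 4.18% for Hp and 4.05% for Wisp2. In 173 culture cells with Tyrobp and Fcer1g at 5 or more per 10000, whose median depth of 15253 UMIs was lower, the share with a UMI was 19.7% for Ccl2, 13.9% for Cxcl5, 1.73% each for Ptx3 and Hp and 0.578% for Wisp2. The share with a Ccl2 UMI in comparison cells was thus below that in these macrophage-marked cells, and whether free RNA gives these shares was not tested.

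The 5 genes were seldom all present in 1 cell. Of the 116 cells, 80 had exactly 3 of the genes, 24 had 4 and 12 had all 5. The commonest combinations were Ccl2, Cxcl5 and Ptx3 in 21 cells and Ccl2, Cxcl5 and Hp in another 21. Cxcl5 had the most UMIs of the 5 in 76 cells, Ccl2 in 23, Hp in 10, Wisp2 in 4 and Ptx3 in 3. Pairwise Spearman correlations of their levels across the 116 cells lay between -0.222 and 0.0757, where the requirement of a minimum sum itself pushes them down.

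Some other secreted proteins ran with members of the 5. Across the same cells Ccl2 ran with its chromosomal neighbour Ccl7, another monocyte chemokine (Spearman 0.438). Cxcl5 ran with the neutrophil chemokine Cxcl1 (0.364), and Hp with Lcn2, which encodes the iron-siderophore-binding protein lipocalin 2 (0.379). Correlations with the 5 were computed only for Lcn2, Epcam, Vim, Fstl1, Cp, Bst1, Saa3, Ccl7 and Cxcl1, and these were the highest of them. No search over all genes was made. Lcn2 also ran with Cxcl5 (0.325) and Cxcl1 with Ccl2 (0.237). All are descriptions over cells that share 3 libraries, and the rule used 1 gene of each pair. The median Lcn2 level was 50.5 per 10000 UMIs in the 10 Hp-led cells, 20.4 in the 76 Cxcl5-led cells and 2.20 in the 23 Ccl2-led cells. All 10 Hp-led and all 4 Wisp2-led cells came from collagen. The Wisp2-led cells had a median Epcam level of 0.

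The sum of the 5 genes ranged from 10.1 to 181 per 10000 UMIs, with a median of 24.8 in 5-gene-high cells and 0.235 in comparison cells. It was at least 20 in 75 cells and at least 100 in 13. Just inside the threshold, 13 cells had sums between 10 and 12, with a median Epcam level of 3.84 per 10000. Just outside, 23 cells with at least 3 genes had sums between 8 and 10 and a median Epcam level of 12.3. A further 273 gated cells reached a sum of 10 with fewer than 3 genes. Before the last gates 134 culture cells met the 5-gene criteria, of which 8 were left out for Tyrobp or Fcer1g and 10 for Col1a1 and Col3a1. Of 309 4T1 cells with at least 5000 UMIs, whose median of 73630 was higher, 0 met the 5-gene criteria, which allows a share of up to 0.971%.

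The cells were spread over both matrices and all days but not evenly. Collagen held 90 of them (77.6%), 8 on day 0, 53 on day 3 and 29 on day 5, and Matrigel 26 (22.4%), with 5, 17 and 4. Mouse 1 gave 49, mouse 2 gave 35, mouse 3 gave 24 and mouse 4 gave 8. In collagen on day 3 they made up 6.04% of the gated cells of mouse 1 (25 of 414), 2.17% of mouse 2 (24 of 1106), 0.271% of mouse 3 (2 of 739) and 1.72% of mouse 4 (2 of 116). In Matrigel on day 3 they were 3 of 46 cells in mouse 1 (6.52%), 3 of 141 in mouse 2 (2.13%), 8 of 99 in mouse 3 (8.08%) and 3 of 351 in mouse 4 (0.855%). Mouse 3 thus had nearly none in collagen and its highest share in Matrigel on that day. In collagen on day 5 the shares were 11.1% in mouse 1 (11 of 99), 1.78% in mouse 2 (6 of 337) and 2.07% in mouse 3 (12 of 579).

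Day 0 had few of these cells in either matrix. In collagen they were 6 of 303 cells in mouse 1, 0 of 148 in mouse 2, 0 of 137 in mouse 3 and 2 of 105 in mouse 4, and the counts of 0 allow shares of up to 2.03% and 2.19%. In Matrigel they were 2 of 317, 2 of 288, 0 of 351 and 1 of 394 in mice 1 to 4. Matrigel on day 5 had 2 of 12 cells in mouse 1, which was too few gated cells to enter a test, 0 of 50 in mouse 2 and 2 of 37 in mouse 3.

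**Figure D1:**
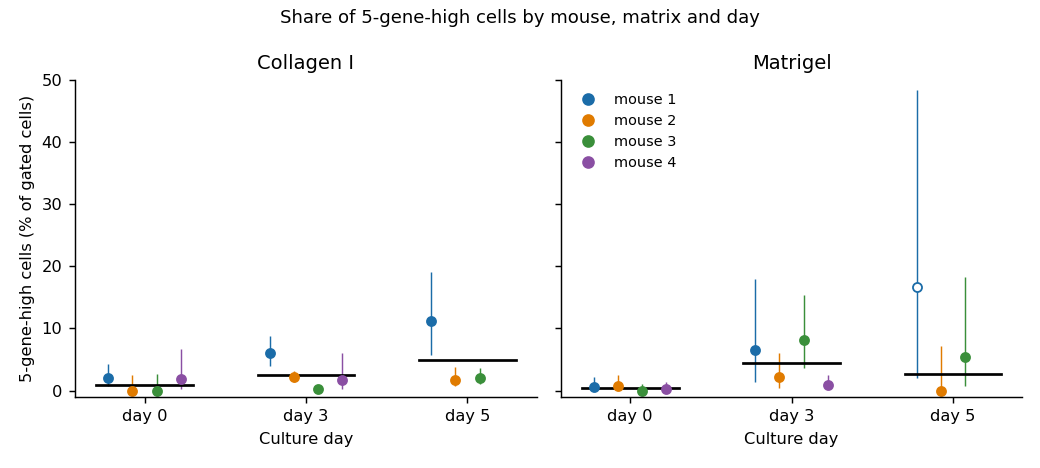
Share of 5-gene-high cells among gated cells (y axis, percent) on days 0, 3 and 5 (x axis) in collagen I (left panel) and Matrigel (right panel), with 1 point per mouse and 95% exact binomial intervals that cover counting error only. Black lines are means of the filled points, and the open point had too few gated cells to be tested. Mouse 1 stands highest in collagen on day 5 at 11.1%, and the widest interval belongs to its 12 gated cells in Matrigel on day 5.

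Between matrices the mean share did not differ beyond the spread between mice on any day. On day 3 it was 2.55% ± 2.46 in collagen and 4.40% ± 3.45 in Matrigel (SD, n = 4 mice each), with p = 0.371 by a two-sided exact permutation test whose smallest possible p is 0.0286. On day 0 the difference, collagen minus Matrigel, was 0.576 percentage points (exact permutation p = 0.429), and on day 5 it was 2.29 points (exact permutation p = 0.8, smallest possible 0.1). The sign on day 3 turned to 0.143 points without mouse 3, and that on day 5 turned to -0.776 without mouse 1. Between days, Matrigel had 4.40% ± 3.45 on day 3 and 0.395% ± 0.327 on day 0 (SD, n = 4 mice each), higher in 4 of 4 mice. The exact permutation p of 0.0286 was the smallest this unpaired test can reach and was 0.2 after Benjamini-Hochberg adjustment over 7 comparisons. The same 4 mice gave both days, and with the mice paired an exact sign-flip test gave p = 0.125 (0.7 adjusted). Depth moved with the share, since the median UMI count of comparison cells in Matrigel was 42317.5 on day 3 and 19109 on day 0. With every cell thinned to 5000 UMIs the difference was 0.954 points (exact permutation p = 0.257). In collagen the share was 1.58 points higher on day 3 than on day 0 (exact permutation p = 0.2), and 0.293 points higher after thinning, where the median UMI count of comparison cells was 36450 on day 3 and 20320 on day 0. It was 2.44 points higher on day 5 than on day 3 (exact permutation p = 0.543).

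The label of tumour cells was checked against markers, and the group held to it in part. Epcam, the epithelial cell adhesion molecule, had a UMI in 89.7% of 5-gene-high cells, 98.0% of comparison cells and 25.4% of the 173 Tyrobp- and Fcer1g-positive cells. At 5 or more per 10000 UMIs it was present in 48 of the 116 cells (41.4%), against 84.9% of comparison cells. The 10 epithelial markers summed to 2217 CPM in all 5-gene-high cells pooled, against 6507 CPM, and ranged from 755 to 6973 CPM over the 7 sums of at least 5 cells, against 4664 to 8554 CPM over 22 comparison sums. The 10 macrophage markers summed to 115 CPM in 5-gene-high cells and 66.9 CPM in comparison cells, with ranges of 74.6 to 174 CPM and 44.0 to 316 CPM over sums. Nearly all of this was Cd14, a lipopolysaccharide co-receptor, at 109 CPM in 5-gene-high cells and 57.1 CPM in comparison cells. Tyrobp and Fcer1g were at 0 by the rule, Ptprc, Adgre1 and C1qb were at 0 as well, and the others were at 3.42 CPM or less. Pecam1, Cdh5, Emcn and Tek of the 5 endothelial markers were also at 0.

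Pooled fibroblast, adipocyte, and pericyte and smooth muscle markers were also above the comparison cells. All 10 fibroblast markers had UMIs, and their sum was 241 CPM in 5-gene-high cells and 89.3 CPM in comparison cells pooled, with ranges of 28.7 to 323 CPM and 9.85 to 170 CPM over sums. Dcn, which encodes the matrix proteoglycan decorin, gave 133 CPM of it against 14.9 CPM, and 6 of the 116 cells (5.17%) had Col1a2, Dcn and Lum at 5 or more per 10000, against 37 comparison cells (0.611%). Of the 3 adipocyte markers in the files Adipoq was at 0, and the sum of 135 CPM against 7.13 CPM was nearly all Fabp4. Together Fabp4 and Lpl had 99.4% of their UMIs in 7 of the 116 cells. The 6 pericyte and smooth muscle markers all had UMIs and summed to 44.6 CPM in 5-gene-high cells and 21.5 CPM in comparison cells, with ranges of 7.71 to 138 CPM and 6.22 to 41.4 CPM over sums. Of these Pdgfrb was at 17.1 CPM against 2.61 CPM and Des at 11.9 CPM against 0.956 CPM. A fit without cells of high Col1a2, Dcn and Lum is given below, and otherwise the part of these markers in the results was not tested. By the rule the group is therefore a set of cells that share secreted gene counts and differ in epithelial character, and no cell type name is given to it here. Clustering of all cells placed its cells in 13 of 22 clusters, with 57 of 116 in 2 clusters that hold 995 gated cells.

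Epcam and Vim, which encodes the intermediate filament of mesenchymal cells, divided the group. Across the 116 cells their levels had a Spearman correlation of -0.702, and Epcam with Fstl1, which encodes a secreted follistatin-related protein, had -0.617. The median Epcam level was 1.49 per 10000 in the 90 cells from collagen and 9.30 in the 26 from Matrigel. Vim showed the opposite order, with medians of 7.82 in collagen and 0.688 in Matrigel. Comparison cells had the same order in Vim, with medians of 0.377 in collagen and 0 in Matrigel. Pooled Vim was 1202 and 491 CPM in collagen and Matrigel in 5-gene-high cells, against 713 and 189 CPM in comparison cells. Lcn2 had medians in 5-gene-high cells of 14.5 in collagen and 34.7 in Matrigel, and Fstl1 of 0.970 and 0. In comparison cells the Lcn2 medians were 2.88 and 3.91, and those of Fstl1 were 0 in both. The comparison cells had Epcam medians of 14.9 in collagen and 18.8 in Matrigel. Mice differed in this: the Epcam median was higher in Matrigel in mice 1, 2 and 4 (11.6, 8.18 and 17.8, against 1.26, 1.03 and 5.14 in collagen) and higher in collagen in mouse 3 (12.4 in collagen and 4.26 in Matrigel), of whose 14 collagen cells 12 came from day 5. Vim was lower in Matrigel in all 4 mice. These are medians over 4 to 42 cells a mouse and were not tested.

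**Figure D2:**
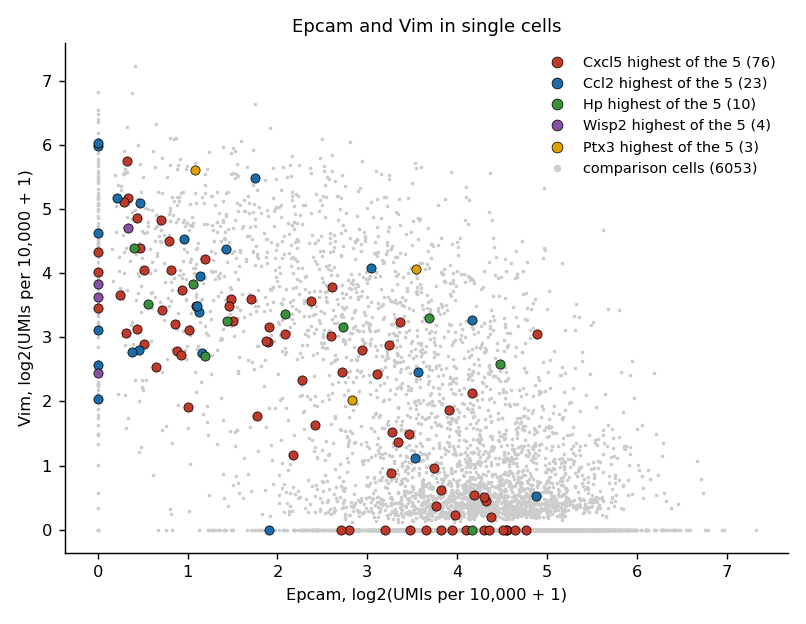
Epcam (x axis) and Vim (y axis) in each cell are shown as log2(UMIs per 10,000 + 1). The 116 5-gene-high cells are coloured by which of the 5 genes has the most UMIs, and the 6053 comparison cells are grey. The Cxcl5-led cells run along both axes, and the 4 Wisp2-led cells lie at or near 0 on the Epcam axis.

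Genes outside the rule were compared over mice, with counts summed per mouse for 5-gene-high and for comparison cells of collagen. On day 3 only mice 1 and 2 gave sums of at least 10 5-gene-high cells (25 and 24), against sums of 4 mice for comparison cells. Of 12817 genes 193 were higher and 241 lower in 5-gene-high cells by edgeR's quasi-likelihood test at an adjusted p under 0.05, or 3.39% of the genes tested. With the mouse as a block 570 were higher (4.45%) and 634 lower (4.95%), or 9.39% in all, and 428 of the 434 were among them. The calls rest on both mice: 43 genes passed without mouse 1 and 14 without mouse 2, and 243 without mouse 3, while 754 passed without mouse 4, whose comparison cells alone entered.

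Epithelial adhesion and keratin genes were lower. Of 20 junction genes 12 were called lower and 0 higher on day 3, with a median log2 fold change of -2.18 against -0.07 over all genes; 1.88% of all genes were called lower. Epcam had 247 and 452 CPM in the 5-gene-high cells of mice 1 and 2, against 1439, 1716, 1856 and 1619 CPM in comparison cells of mice 1 to 4 (log2 fold change -2.25 ± 0.42 SE, edgeR adjusted p = 0.00557). The groups did not overlap. Esrp1, an epithelial splicing regulator, had 6.47 and 7.83 CPM against 33.4, 33.4, 34.3 and 32.5 CPM, and the comparison mice were nearly alike (-2.22 ± 0.26 SE, edgeR adjusted p = 0.000111). Dsp, which encodes the desmosomal linker desmoplakin, had 14.0 and 5.59 CPM against 78.4, 109.5, 97.4 and 88.6 CPM (-3.25 ± 0.52 SE, edgeR adjusted p = 0.00162). Jup (plakoglobin), Cldn4 (a tight junction claudin) and Cdh1 (E-cadherin) fell by 1.95, 4.34 and 2.18 on the log2 scale. In Cdh1 the 5-gene-high sums were 15.1 and 6.71 CPM, against 40.4, 45.0, 39.2 and 77.1 CPM.

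Both luminal and basal keratins were among the genes that fell. The luminal list had 4 of 19 genes called lower and the basal list 6 of 16. None was called higher in either, and the medians were -0.98 and -2.26. With the mouse as a block 8 luminal and 6 basal genes were called lower. Krt8, a simple epithelial keratin, had 76.5 and 187 CPM in 5-gene-high cells, against 1248, 1095, 1311 and 453 CPM in comparison cells (-2.97 ± 0.57 SE, edgeR adjusted p = 0.00579). Its partner Krt18 had 323 and 376 CPM against 1966, 1602, 2193 and 743 CPM, lower in both 5-gene-high sums than in any comparison sum. Krt14, a keratin of basal cells, had 305 and 235 CPM against 1372, 1819, 1359 and 1272 CPM (-2.43 ± 0.45 SE, edgeR adjusted p = 0.00431). Krt5, its usual partner, had 0 and 3.36 CPM against 229, 283, 47.0 and 124 CPM. Krt17, Itga6 and Itgb4, the last 2 being subunits of the hemidesmosome integrin, fell by 2.98, 2.45 and 2.26 on the log2 scale. Krt6a, at 3.23 and 4.47 CPM against 75.1 to 181 CPM, was called at an edgeR adjusted p of 0.0431 and not with the mouse as a block (0.0524). The retinaldehyde dehydrogenase gene Aldh1a3 and the keratin gene Krt7 fell by 3.37 and 2.56.

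A few surface-layer and basement membrane genes fell as well. The squamous list had 2 of 12 genes called lower, Lgals7 and Sfn, and the basement membrane list 3 of 15, including Lamb3, which encodes a chain of the epithelial laminin that hemidesmosomes bind. The other basement membrane genes were not called, and 6 of the 15 had log2 fold changes above 0, such as Col4a1 (1.52) and Nid1 (1.11). Large falls were in Mal, which encodes an apical transport protein, Klk6, which encodes a kallikrein protease, and Aqp3, which encodes a water and glycerol channel. Mal had 0 and 1.12 CPM in 5-gene-high cells, against 111, 97.1, 312 and 33.4 CPM in comparison cells. Klk6 had 2.16 and 1.12 CPM against 282, 207, 274 and 30.6 CPM, and Aqp3 had 1.08 and 2.24 CPM against 99.6, 72.4, 105 and 13.3 CPM. Klk8, Flrt3 and Il24 were called lower with log2 fold changes of -4.38, -4.30 and -5.02. In all of these except Il24, mouse 4 was the lowest of the comparison mice.

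Part of the interferon response genes rose on day 3. Of 19 tested 8 were called higher and 0 lower, with a median log2 fold change of 1.64, where 1.51% of all genes were called higher; with the mouse as a block 15 were called higher. Isg15, a ubiquitin-like interferon-induced protein, had 663 and 1208 CPM in 5-gene-high cells, against 254, 248, 201 and 101 CPM in comparison cells (2.21 ± 0.42 SE, edgeR adjusted p = 0.00557). Its counts were widespread, with a UMI in 52 of the 53 5-gene-high cells of collagen day 3 and in 72.6% of comparison cells. Bst2, the membrane protein tetherin, had 518 and 737 CPM against 189, 179, 115 and 112 CPM (2.08 ± 0.37 SE, edgeR adjusted p = 0.00391). Ifi44 had 52.8 and 105 CPM against 13.7, 11.0, 3.37 and 3.94 CPM (3.25 ± 0.64 SE, edgeR adjusted p = 0.00666). In each of these 3 genes both 5-gene-high sums lay above all 4 comparison sums. The 3 were picked from the called genes, so this adds nothing to the test, and the share of all genes that do so is not given. Ifit3 rose by 3.82 on the log2 scale, but 90% of its UMIs came from 5 cells. The others called were Irf7, a transcription factor of the interferon response, Oasl2, Zbp1 and Ifitm3, of which Ifitm3 shares sequence with other family members, so that its counts are uncertain. The ISRE matches in the Isg15 promoter are shown above.

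Some antigen presentation genes rose, with smaller changes. Of 14 tested 6 were called higher and 0 lower, with a median of 0.73: the immunoproteasome subunits Psmb8, Psmb9 and Psmb10, the peptide-loading protein gene Tapbp, and the MHC class I genes H2-K1 and H2-D1, which are similar in sequence and whose counts may be split. Psmb10 had 144 and 177 CPM against 52.9, 50.9, 33.8 and 61.3 CPM (1.70 ± 0.29 SE, edgeR adjusted p = 0.00247). Psmb8 had 503 and 835 CPM against 342, 278, 257 and 273 CPM (1.22 ± 0.25 SE, edgeR adjusted p = 0.00824). H2-K1 was abundant in both, at 2702 and 3387 CPM against 1426, 1556, 1679 and 1904 CPM. These 3 were detected in at least 50 of the 53 cells.

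Of the complement genes 4 were called higher, and of the acute-phase genes Saa3 alone, each with UMIs in a minority of the cells. With the mouse as a block 6 complement genes were called higher and 1 lower, and 4 acute-phase genes higher and 1 lower. Of 10 complement genes tested 4 were called higher: Serping1, the C1 inhibitor, Cfb and C2, components of the convertases, and C1s1, a C1 protease that has a close copy in the mouse genome, so that its counts are uncertain. Serping1 had 48.5 and 106 CPM against 4.97, 7.57, 1.01 and 2.12 CPM, with a UMI in 19 of 53 cells and 80.3% of its UMIs in 5 of them. C2 was low, at 12.9 and 22.4 CPM against 0.684, 1.43, 1.06 and 0.910 CPM (4.06 ± 0.51 SE, edgeR adjusted p = 0.000239). It had a UMI in 11 of 53 cells, with 84.1% of its 44 UMIs in 5 of them. Cfb had 13 UMIs in 8 cells, and C1s1 had 21 UMIs in 10 cells. Saa3, an acute-phase apolipoprotein, was the only 1 of 17 acute-phase genes called without the block. It had 595 and 540 CPM against 11.1, 41.9, 4.54 and 2.12 CPM. However, 9 of the 53 cells had a Saa3 UMI and 5 held 99.6% of them. Saa3 belongs to a family of similar genes. Uncalled acute-phase genes lay on both sides of 0, with Ltf at -6.07, S100a9 at -6.06 and Lrg1 at 2.60. Lcn2, which was not called, had 3274 and 2179 CPM against 1175, 647, 754 and 354 CPM.

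Of the chemokines outside the rule 1 of 14 was called, Ccl7, at 56.0 and 164 CPM against 4.29, 9.50, 1.46 and 13.3 CPM, with 93.5% of its UMIs in 5 cells. Cxcl1 was not called and had 1521 and 988 CPM against 338, 355, 492 and 286 CPM. Among 19 cytokines and growth factors Il6, the main inducer of acute-phase genes, and Il18 were called higher; both are named because the count is small, after their values were seen. Il6 was at 18.3 and 17.9 CPM in 5-gene-high cells, against 1.12, 0.740, 0.0406 and 0.303 CPM in comparison cells (4.93 ± 0.87 SE, edgeR adjusted p = 0.00363). Of 26 NF-kB targets 1 was called, Sod2, a mitochondrial superoxide dismutase, and of 19 genes of the STAT3 and C/EBP axis edgeR called 0 and DESeq2 2, with 9 higher and 1 lower at an unadjusted p under 0.05. The medians of the 2 lists were 0.46 and 0.60. With the mouse as a block 5 NF-kB targets, 4 genes of the STAT3 and C/EBP axis and 4 chemokines were called, all higher, while the cytokine list had 3 called higher and 3 lower.

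Matrix-associated genes were higher in part. Of 18 matricellular genes 3 were called higher, Fstl1, Wisp1 and Smoc1. Wisp1 had a UMI in 21 of 53 cells and 58.6% of its UMIs in 5 of them. Fstl1 came with the rule as a marker, so its call adds no support for the list and it is only described. It had 237 and 179 CPM against 36.5, 14.5, 5.60 and 62.2 CPM on day 3. Smoc1, which encodes a calcium-binding matrix protein, had 28.0 and 35.8 CPM against 7.95, 5.75, 4.38 and 9.41 CPM (2.25 ± 0.43 SE, edgeR adjusted p = 0.00601). Mmp2, the gelatinase A gene, had 175 and 94.0 CPM against 19.9, 6.52, 1.26 and 24.6 CPM (3.44 ± 0.80 SE, edgeR adjusted p = 0.0187), and was detected in 31 of 53 cells. Tnfsf11, which encodes RANKL, and Ccdc80 rose by 3.64 and 3.42 on the log2 scale. They were detected in 16 and 19 of 53 cells, with 75.8% and 71.3% of their UMIs in 5 cells each. Lpl (lipoprotein lipase), Ctsk (cathepsin K), Rarres2 (chemerin) and Fabp4 were called higher by 5.50, 4.38, 4.22 and 4.32 but had at least 99.0% of their UMIs in 5 cells each.

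Mesenchymal genes as a list had 2 of 17 called higher, the microfibril gene Fbn1 and Zeb2, a repressor of epithelial genes, and none lower, with a median of 0.59. With the mouse as a block 5 genes of the list were called higher and 0 lower. Zeb2 had 81.9 and 183 CPM in 5-gene-high cells, against 30.3, 28.6, 29.9 and 20.9 CPM in comparison cells. Vim did not pass the test, at 919 and 1939 CPM against 1239, 639, 247 and 451 CPM (edgeR adjusted p = 0.326), and neither did Fn1, the fibronectin gene, at 402 and 940 CPM against 431, 347, 387 and 690 CPM. The fibroblast markers were higher in the same cells, as given above. With cells of high Col1a2, Dcn and Lum removed from both classes 364 genes were called, 346 of them among the 434, an alternative chosen after seeing the data.

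Few cycling genes were called on day 3. Of 19 genes of G2 and mitosis 0 passed edgeR's test, with or without the mouse as a block, 0 passed DESeq2's and 0 had an unadjusted p under 0.05. Of 16 S phase genes 1 passed, Gins2. The medians were -0.20 and -0.16. Mki67 had 216 and 53.7 CPM in 5-gene-high cells, against 95.3, 133, 158 and 143 CPM, so that the 2 mice lay on either side of the comparison mice. The lists of hypoxia, oxidative stress, unfolded protein response, YAP and TGF-beta target genes had 0 genes called by edgeR, 0 to 2 in either direction with the block, 0 or 1 by DESeq2, and 0 to 3 in either direction at an unadjusted p under 0.05. Of 16 p53 targets 1 was called lower, Phlda3, with 4 lower and 2 higher in the block fit, 4 lower by DESeq2, and 9 lower and 2 higher at an unadjusted p under 0.05. The Wnt pathway list had 1 gene called lower, Wnt7b, and that of proteases had Plau called lower beside Mmp2 called higher.

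**Figure D3:**
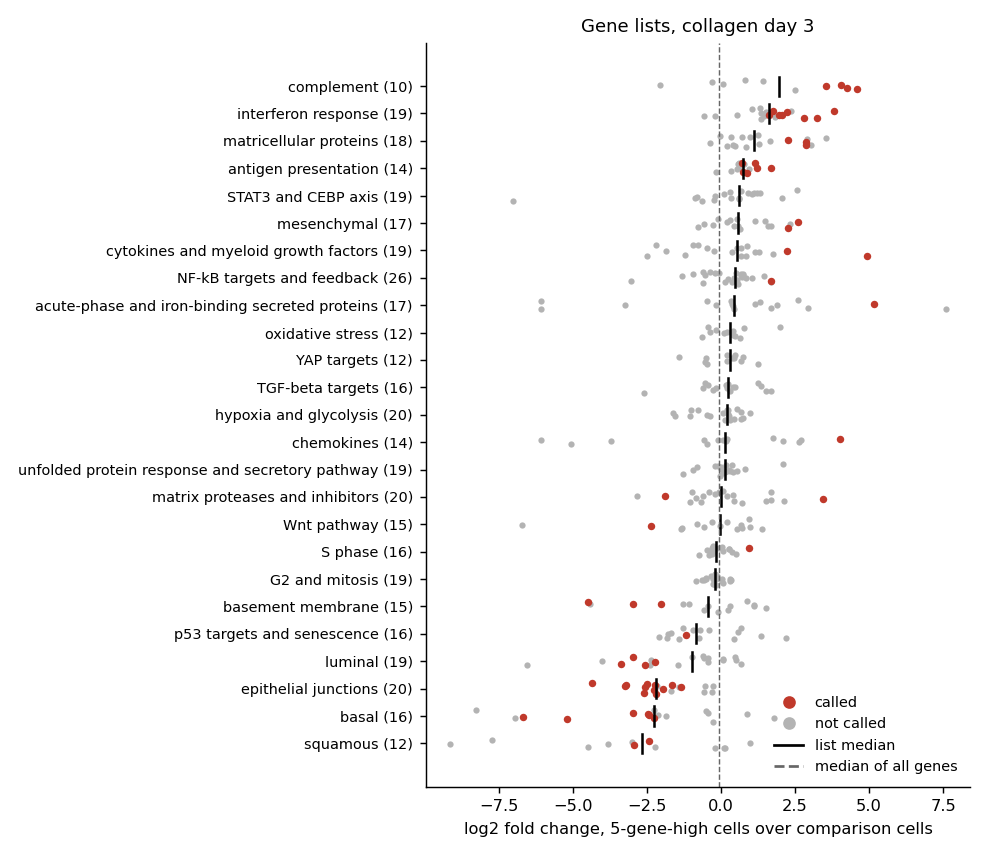
Log2 fold change of 5-gene-high over comparison cells in collagen on day 3 (x axis) for each tested gene of the lists (y axis, number tested in brackets), red where called, with black bars at list medians and a dashed line at the median of all genes. All 12 red points of the junction list lie left of 0 and all 8 of the interferon list right of it.

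On day 5 the sums came from mice 1 and 3 (11 and 12 cells), against 3 mice for comparison cells, and 35 of 12817 genes passed edgeR's test, 13 higher (0.101%) and 22 lower, or 0.273% in all. With the mouse as a block 109 were higher (0.85%) and 144 lower (1.12%), or 1.97% in all, with all 35 among them. Without mouse 1 or without mouse 2 edgeR called 0 genes, with 906 and 964 at an unadjusted p under 0.05, and without mouse 3 it called 9. Of the 35 genes 25 were called on day 3 as well (71.4% of the day 5 calls and 5.76% of the day 3 calls), all 25 with the same sign, and 387 of the 434 day 3 calls had that sign on day 5.

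Epithelial genes made up much of the lower set on day 5 too. Of 20 junction genes 3 were called lower, the plakophilin genes Pkp1 and Pkp3 and Esrp1, with a median of -1.05, and 0.172% of all genes were called lower. Esrp1 had 7.47 and 12.1 CPM in 5-gene-high cells, against 27.0, 38.7 and 42.5 CPM in comparison cells of mice 1 to 3 (-1.89 ± 0.27 SE, edgeR adjusted p = 0.00248). Krt14 had 257 and 429 CPM against 1126, 2933 and 1284 CPM (-2.38 ± 0.46 SE, edgeR adjusted p = 0.0200). Sfn, the epithelial 14-3-3 protein, had 80.6 and 90.4 CPM against 408, 908 and 512 CPM, and the galectin gene Lgals7 had 70.2 and 90.4 CPM against 377, 696 and 549 CPM. Lypd3, Krt7 and Serpinb5 fell by 3.66, 2.31 and 2.08 on the log2 scale. Krt8 and Krt18 were called with the mouse as a block only (block edgeR adjusted p = 0.0117 and 0.000133), at 64.2 and 315 CPM against 771 to 1081 CPM and at 208 and 348 CPM against 952 to 1114 CPM. Epcam did not pass in either fit, and its 2 sums stood apart, at 140 CPM in mouse 1 and 895 CPM in mouse 3, against 888, 1234 and 1219 CPM. The 6 5-gene-high cells of mouse 2 on day 5, outside these fits, went against the keratin falls in part. Their Krt8, Krt18 and Krt7 were at 1912, 2315 and 565 CPM, above all 3 comparison sums. Krt14 and Epcam were at 1253 and 895 CPM, within the range of the comparison sums. Esrp1, Sfn, Lgals7 and Lypd3 were at 5.23, 387, 178 and 10.5 CPM, below all 3.

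Of the genes called higher on day 5, Il10rb, Ifngr1, Cyba, Slc39a14, Dram1, Snx10, Gpc4 and Tmem176b were called higher on day 3 too. Tnip1, a feedback inhibitor of NF-kB, was the only 1 of 26 NF-kB targets called, at 98.5 and 88.9 CPM against 34.3, 33.8 and 36.9 CPM (1.42 ± 0.24 SE, edgeR adjusted p = 0.00806), and had a UMI in all 29 5-gene-high cells and in 73.5% of comparison cells. The block fit called 7 NF-kB targets, all higher. The receptor subunit genes Il10rb and Ifngr1 had 85.1 and 91.9 CPM against 42.3, 33.7 and 37.6 CPM, and 143 and 105 CPM against 60.3, 52.9 and 58.8 CPM. Both receptors, picked from the called genes, thus had their 2 sums above all 3 comparison sums. Cyba, a subunit of the NADPH oxidase, had 434 and 461 CPM against 242, 200 and 238 CPM, and the zinc transporter gene Slc39a14 had 148 and 72.3 CPM against 46.9, 39.1 and 53.02 CPM. Dram1, Snx10, Gpc4, Tmem176b and Zc3hc1 rose by 0.92 to 1.69 on the log2 scale.

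On day 5 edgeR called 0 genes of the interferon, antigen presentation, complement, chemokine, cytokine, acute-phase, matricellular and mesenchymal lists. With the mouse as a block the chemokine, cytokine, complement, antigen presentation, matricellular and mesenchymal lists had 1 gene each called higher, the cytokine list also 1 lower, the acute-phase list had 2 higher, and the interferon list had 0. At an unadjusted p under 0.05 these lists had 0 to 4 genes higher and 0 to 2 lower, and DESeq2 called at most 1 higher and 2 lower in any of them. The interferon median was -0.59, with 2 genes lower and 0 higher at an unadjusted p under 0.05. The markers Cp, the copper-binding ferroxidase ceruloplasmin, Fstl1 and Bst1, a cell-surface enzyme that uses NAD, were higher on average on both days. Cp had 661 and 254 CPM on day 3 against 87.0, 98.8, 50.9 and 332 CPM, and 655 and 398 CPM on day 5 against 175, 147 and 112 CPM. The sum of mouse 2 on day 3 lay below the comparison cells of mouse 4. Bst1 had 114 and 55.9 CPM on day 3 against 41.0, 11.8, 10.8 and 31.9 CPM, and 102 and 39.2 CPM on day 5 against 80.0, 23.8 and 15.5 CPM.

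**Figure D4:**
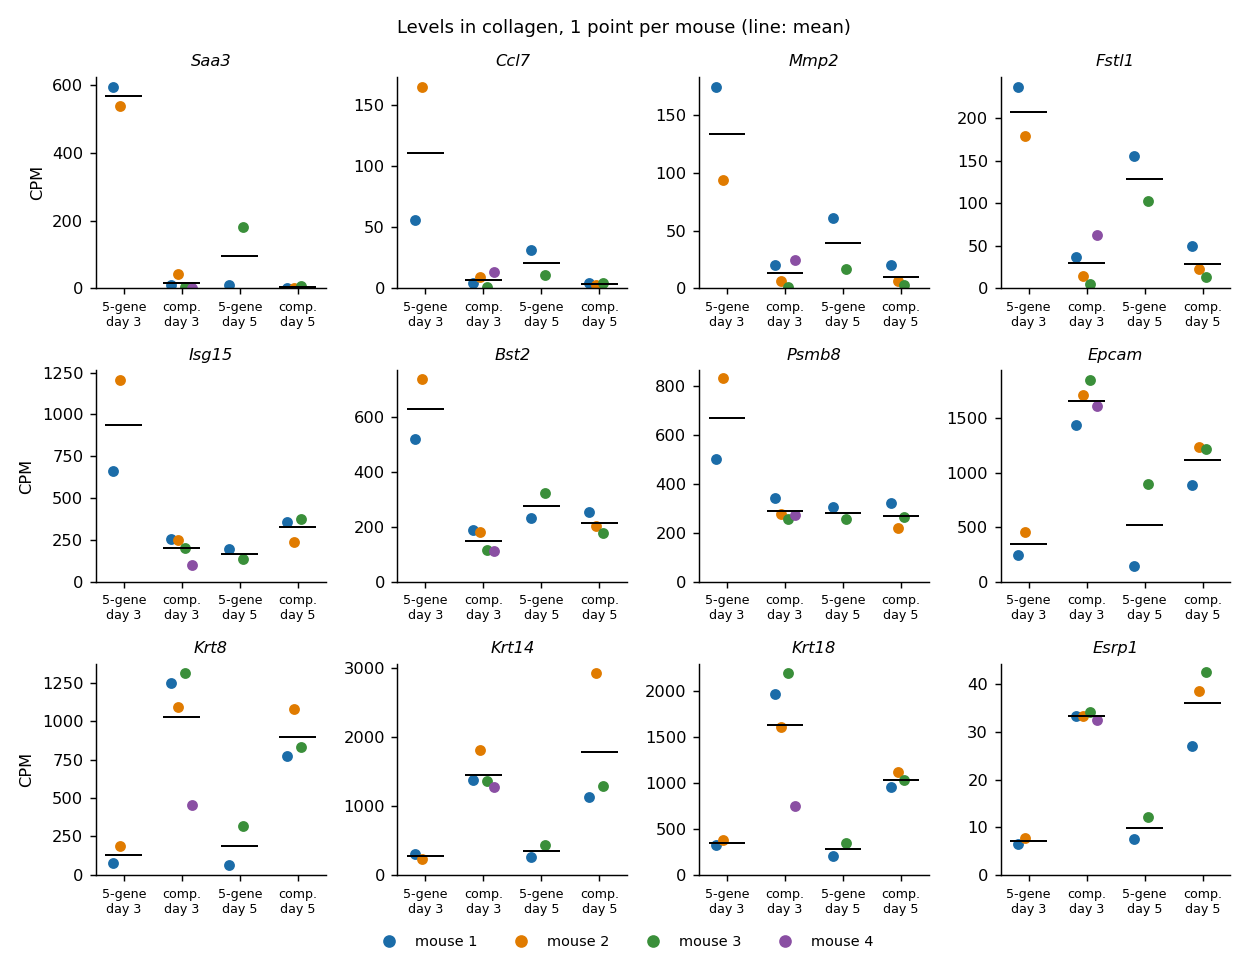
Levels of selected genes in CPM (y axes, each from 0) in collagen for 5-gene-high cells and comparison cells on day 3 and then on day 5 (x axis), with 1 point per mouse and a line at the mean. Isg15 lies between 663 and 1208 CPM in 5-gene-high cells on day 3, above all 4 comparison mice, and at 194 and 137 CPM on day 5, below all 3.

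Within 5-gene-high cells of collagen, day 5 over day 3, 23 genes were higher (0.179%) and 16 lower (0.125%) by edgeR, or 0.304% of 12817. With the mouse as a block 66 were higher (0.515%) and 110 lower (0.858%), or 1.37% in all. Only mouse 1 gave a sum on both days, and without mouse 1, 2 or 3 the counts were 0 (1280 at an unadjusted p under 0.05), 2 and 3. Isg15 had 194 and 137 CPM on day 5 (mice 1 and 3) and 663 and 1208 CPM on day 3 (mice 1 and 2), a log2 fold change of -2.50 ± 0.54 SE (edgeR adjusted p = 0.0457). The comparison cells of day 5 had 357, 239 and 376 CPM. All 19 interferon genes had changes of 0 or below, with a median of -1.67 against 0 over all genes; 1 was called lower, and 4 with the block. In comparison cells the change of Isg15 between the same days was 0.68 (edgeR adjusted p = 0.537).

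The day 5 difference between the classes minus that of day 3 was tested as well, a test added after seeing the data. No gene passed by edgeR, with 583 at an unadjusted p under 0.05, and Isg15 had -3.18 ± 0.66 SE (edgeR adjusted p = 0.478). The block fit called 1 gene, Usp18, the protease that removes Isg15 from proteins, at -3.28 ± 0.51 SE (edgeR adjusted p = 0.0293), and Isg15 had -3.04 (edgeR adjusted p = 0.0528). Usp18 had 52.8 and 73.8 CPM in 5-gene-high cells on day 3, against 23.9, 17.1, 20.1 and 8.19 CPM in comparison cells, and 13.4 and 10.5 CPM on day 5, against 38.6, 25.7 and 36.4 CPM. Its order between the classes was thus opposite on the 2 days, as was that of Isg15, in the sums of at least 10 cells. Mouse 2 on day 5, with 6 cells and outside these fits, went against this. Its 5-gene-high cells had Usp18 at 31.4 CPM, against 25.7 CPM in its comparison cells. Isg15 was at 466 CPM there, against 239 CPM. Other sums of fewer than 10 cells gave Isg15 at 846 CPM in mouse 1 on day 0 (6 cells) and 548 CPM in mouse 3 in Matrigel on day 3 (8 cells).

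Some of the other named changes with day had like values in the comparison cells. Cdk2ap1, a cell cycle regulator, changed by 2.73 in 5-gene-high cells and 2.66 in comparison cells, and the tubulin gene Tuba1a by 2.25 and 1.37. The caveolin gene Cav2 changed by 1.48 and 1.19. Ndufaf3, an assembly factor of respiratory complex I, and the receptor gene Notch1 fell by 1.57 and 1.36 on the log2 scale, against -0.17 in comparison cells for each. No test of a difference between matrices within 5-gene-high cells could be fitted, since no Matrigel sum reached 10 cells.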

How the data were processed

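The authors deposited 1 matrix of UMI counts for 7620 cells and 20605 genes, with an annotation of each cell's time point, mouse and matrix; per the submitters' processing notes it was made with Cell Ranger 3.0.2 and Scanpy 1.4.4 on GRCm38. The annotation names the time points D1, D3 and D5, and D1 was taken to be the sample labelled day 0. The mitochondrial share is the fraction in the authors' deposited cell annotation. The deposited gene table's number of cells with each gene, also a count, was used only to check the matrix. Doublets were not called here. The members, markers and gene lists were chosen with earlier results of these data known. Counts were summed per class, matrix, day and mouse, and sums of at least 10 cells entered 1 edgeR 4.0.16 quasi-likelihood fit (R 4.3.3, TMM scaling, 1 group per class, matrix and day, no block), with Benjamini-Hochberg adjustment over the 12817 genes that passed edgeR's expression filter; the 9 genes of the rule and gates were left out. A gene was called at an adjusted p under 0.05, and log2 fold changes come from this fit. The 4 mice are separate animals, but all their cells of a day share 1 library. Members and comparison cells of 1 mouse come from the same animal, so the mouse number pairs the sums. Deviations from group means had a median correlation of 0.223 between same-mouse sums (-0.0146 to 0.687) and -0.0787 between others. Values with the mouse as a block are given where they change a call of a named gene, and for some of the gene lists. Shares were compared by two-sided exact permutation tests over mice with at least 20 gated cells, which did not pair the mice. Intervals are exact (Clopper-Pearson) at 95% and cover counting error only. Limits for counts of 0 are 3 counts of the total. Named genes were the called genes with the 10 highest and 10 lowest fold changes (5 and 5 between days), if their mean reached 20 CPM and no mouse with both sums went against the sign, up to 4 genes of each list with 3 or more calls, and 12 fixed markers; predicted, mitochondrial and ribosomal genes were left out, and the text gives most of these. Some genes the rule names are not reported here. Alternatives were DESeq2 1.42.0, limma 3.58.1 on 1 value a mouse, no expression filter, other minimum cells, a stricter sum, thinning to 5000 UMIs, other comparison cells and leaving out each mouse. Clusters came from Scanpy 1.11.5 with leidenalg 0.10.2 (2000 variable genes, 30 components, 15 neighbours, resolution 1). Gene positions are from GENCODE for GRCm38, matched for 20574 of 20605 identifiers. Simulated counts with known changes were used to test the fit.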

Additional observations from a re-analysis of the deposited data

Results flagged for a closer look

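In comparison cells of collagen day 3, mouse 4 stood apart from the other 3 mice in 4 genes. Cldn4 was at 320.1 CPM there, against 94.5 to 122 CPM in mice 1 to 3, and Cdh1 at 77.1 CPM against 39.2 to 45.0 CPM. Cp was at 332 CPM against 50.9 to 98.8 CPM. Itga6 was at 39.7 CPM against 126 to 137 CPM. Chance alone gives such a gap in about 1 in 20 groups of 4 to 10 values, and 58 groups were checked. Mouse 4 has no sum of 5-gene-high cells in the comparison. Without it 754 genes were called on day 3 in place of 434, 418 of them shared. The difference of Usp18 between 5-gene-high and comparison cells changed by -3.28 on the log2 scale from day 3 to day 5 with the mouse as a block; without the block it changed by -3.31 and did not pass (edgeR adjusted p = 0.747).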

How the results depend on the processing

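The number of called genes depends on few sums. For day 3, where 434 genes were called, the count was 1204 with the mouse as a block, 144 with the same mice in both classes, 0 by limma on 1 value a mouse averaged over days (1664 at an unadjusted p under 0.05), and 14 to 754 with a mouse left out. For day 5 (35) it was 138 by DESeq2, 253 with the block, 5 with the same mice, 0 by the same limma test and 0 to 108 with a mouse left out. For day 5 over day 3 within 5-gene-high cells (39) it was 67 by DESeq2, 176 with the block, 64 with sums of at least 5 cells and 0 to 73 with a mouse left out. Where a mouse left out leaves 1 sum in a class, that sum is assumed to vary like the others. The same-mice, low collagen gene and 5-cell settings were chosen after seeing the data. Counts under the remaining settings stayed within 1.5 times. A like count can hide changed calls. On day 5 sums of at least 5 cells, which add mouse 2, gave 32 calls, but 11 of the 21 named called genes lost theirs. In the named called genes the sign held in 733 of 735 checks on day 3 and in 273 of 273 on day 5. Between days it held in 100 of 100. The highest and lowest genes were named only if no mouse with both sums went against the sign, and the settings reuse these sums. Kept signs were thus largely fixed in advance. The exceptions were Fabp4 (-0.22) and Ifit3 (-0.59) by limma. The limma test gives 1 value per gene averaged over both days, and that value is set beside each day here. In each pair of sums both genes were higher in 5-gene-high cells on day 3 and lower on day 5. Signs of uncalled markers that turned were, on day 3, Fn1 (-0.33 to 0.98 with a mouse left out) and Mki67 (-1.44 to 0.70 with a mouse left out, -0.30 by limma). On day 5 they were Vim (0.37 by limma), Fn1 (-0.68 to 0.37 with a mouse left out, 0.34 by limma, 0.19 with 5 cells) and Mki67 (-0.0018 without a filter, -0.17 with the block, -0.39 with 5 cells, -0.10 with the same mice, -0.30 by limma, -0.52 to 0.44 with a mouse left out). The matrix difference in share turned to 0.0774 points on day 3 after thinning and ranged from -2.75 to 0.143 with a mouse left out; on day 5 it was -0.776 with the block and from -0.776 to 2.29 with a mouse left out. The causes were not tested. A sum of at least 20 cells or a stricter 5-gene sum left no day 5 value, and thinned counts were not fitted for gene calls. The block also brought Cp (2.16) and Bst1 (1.75) on day 3 and Cp (1.95) and Fstl1 (2.41) on day 5, markers that are only described in the results, under an edgeR adjusted p of 0.05. Apart from these, Krt6a on day 3 and Krt8 and Krt18 on day 5, it changed no call of a gene the rule names.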
